A study of Mus musculus with 6 samples.

Results

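The genes described here make, carry, sense and break down histamine and the catecholamines in the mouse retina. They are 10 of the 49997 genes in the table, found by their symbols: Hdc, Hnmt, Hrh1 and Hrh3 for histamine, and Th, Ddc, Gch1, Gchfr, Slc6a2 and Maoa for the catecholamines. The symbols were chosen by the difference between retinas labelled Samd7 KO and wild type, which was known when the list was drawn up. That difference is therefore given as a description of each of the 10 genes, with no p-value, and the count of the 10 past the threshold is printed once, with nothing read from it.

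Polyadenylated RNA of 6 retinas was sequenced, 1 retina per library. The first 3 carried the genotype label Samd7 knockout (-10A) and were taken at postnatal day 31, and the other 3 carried the label c57Bl6/j wt and were taken at postnatal day 36. All 6 were labelled male, and whether each retina was from its own mouse is not stated. Genotype and age cannot be told apart. The study's title ties Samd7, known as a photoreceptor gene, to the identity of photoreceptors. Values below are normalized reads, that is, reads of a gene after the authors' scaling of each library by its size factor. The libraries labelled Samd7 KO held 44231112 to 53068288 reads in genes, and the wild-type libraries 47727617 to 62813549.

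Samd7 itself went against its label. It had 57837, 45755 and 44932 normalized reads in the libraries labelled Samd7 KO 1, 2 and 3, against 6349, 8141 and 8122 in wild type 1, 2 and 3. Its mean was 6.57-fold higher under the KO label (limma adjusted p = 1.54e-08). Such gene-level counts cannot tell an altered transcript from an intact one. Directions below are therefore those of the retinas labelled Samd7 KO.

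Histamine is made from histidine in a single step by Hdc, histidine decarboxylase, and is inactivated in nervous tissue by the methyltransferase Hnmt. In the mammalian retina, histamine is known to arrive through axons of hypothalamic neurons. Dopamine is the main retinal catecholamine. A sparse class of amacrine cells makes it from tyrosine with Th, tyrosine hydroxylase, and Ddc, the aromatic amino acid decarboxylase. Th needs the cofactor tetrahydrobiopterin, which Gch1 begins to make under the control of its regulatory partner Gchfr.

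Hdc was nearly absent from the retinas labelled Samd7 KO. It had 13.5, 14.5 and 13.5 normalized reads there, from 12, 14 and 14 counted reads, against 1443, 1193 and 1211 in the wild-type retinas, from 1686, 1102 and 1287 counted reads. The groups lay far apart. Means were 13.8 ± 0.583 under the KO label and 1282 ± 139 in wild-type retinas (SD, n = 3 each), a 92.6-fold lower level under the KO label. With 12 to 14 counted reads per library under the KO label, neither the small SD there nor the size of the fold is precise. In a whole retina, fewer cells of a type and less RNA per cell cannot be told apart, here and below. On the log2(value + 1) scale the difference was -6.43 (SE 0.16), and the authors' deposited table gives a log2 fold change of -6.53. Hdc lies on chromosome 2, from 126593659 to 126624025 (GRCm38). No other gene of the annotation overlaps it. The window from 250 bases before to 50 after the start site that RefSeq gives, inside this span, is shown because the difference of Hdc exceeds that of the other 9 genes (RefSeq, GRCm38.p6, chr2:126618629-126618928, minus strand, GC content 50.7%):
Hdc: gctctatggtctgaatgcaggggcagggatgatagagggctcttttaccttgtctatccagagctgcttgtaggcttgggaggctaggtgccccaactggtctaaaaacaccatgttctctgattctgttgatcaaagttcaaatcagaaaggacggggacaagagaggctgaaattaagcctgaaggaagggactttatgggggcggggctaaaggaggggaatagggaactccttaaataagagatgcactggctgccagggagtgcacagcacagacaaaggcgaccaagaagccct

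The other histamine genes stood near their wild-type levels. Hnmt, the enzyme that inactivates histamine, had 518, 540 and 499 normalized reads in retinas labelled Samd7 KO, against 514, 673 and 528 in wild type (log2 difference -0.13, SE 0.12). The groups overlapped, and wild type 2 stood above the other 5 libraries. Hrh3, the H3 receptor, which inhibits transmitter release, had 2583, 2268 and 2475 in retinas labelled Samd7 KO against 2976, 2827 and 2822 in wild type (log2 difference -0.24, SE 0.08). Its groups did not overlap, but the gap between them was smaller than the range among the retinas labelled Samd7 KO. Hrh1, the excitatory H1 receptor, had 30.5, 49.8 and 42.3 in retinas labelled Samd7 KO against 57.3, 36.8 and 43.3 in wild type, and its groups overlapped. Its log2 difference of -0.17 (SE 0.27) rests on 27 to 48 counted reads per library labelled Samd7 KO and 34 to 67 in wild type.

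**Figure D1:**
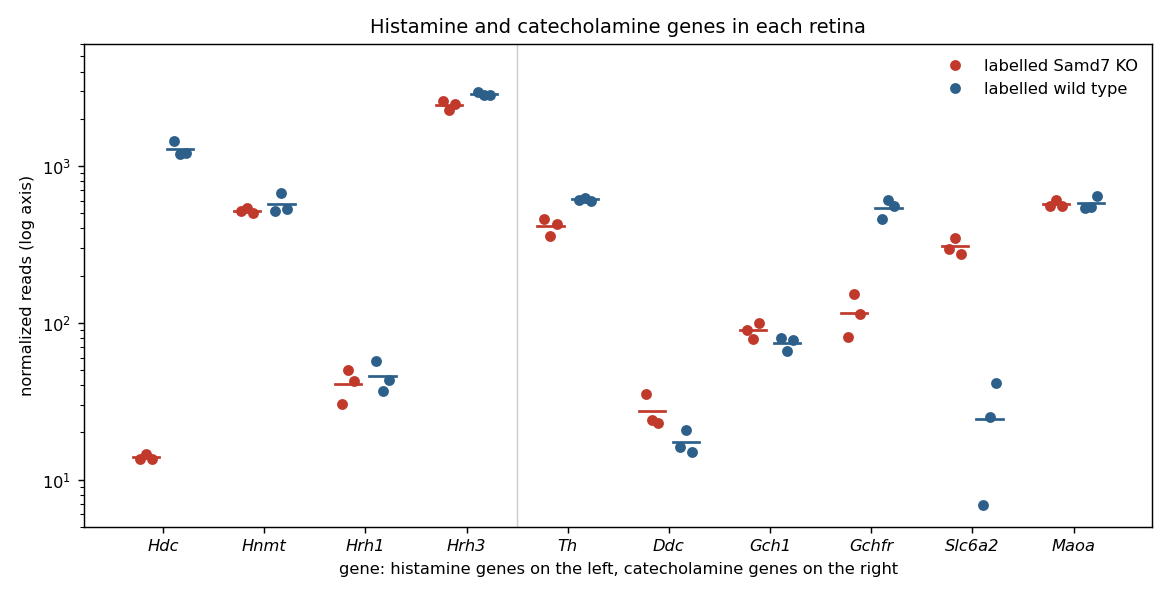
Normalized reads of each of the 10 genes (log axis) in the 3 retinas labelled Samd7 KO (red, left of each pair) and the 3 labelled wild type (blue, right), with group means as bars. Hdc stands at 13.5 to 14.5 under the KO label against 1193 to 1443 in wild type, and Slc6a2 at 276 to 348 under the KO label against 6.84 to 41.4 in wild type.

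Of the genes for dopamine synthesis, Th was moderately lower. Th had 462, 357 and 424 normalized reads in retinas labelled Samd7 KO, against 609, 628 and 602 in wild type. All 3 libraries labelled Samd7 KO lay under the wild-type range, and the means of 414 ± 53.2 under the KO label and 613 ± 13.1 in wild type (SD, n = 3 each) differed 1.48-fold (log2 difference -0.57, SE 0.12). Ddc, which turns L-dopa into dopamine, was low in every library. It had 35.0, 23.8 and 23.1 in retinas labelled Samd7 KO against 16.3, 20.6 and 15.1 in wild type (log2 difference 0.62, SE 0.31), from 23 to 31 counted reads under the KO label and 16 to 19 in wild type. These groups did not overlap, but the gap between them was smaller than the range among the retinas labelled Samd7 KO.

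The cofactor genes Gch1 and Gchfr are given next. Gch1, GTP cyclohydrolase, the first enzyme of tetrahydrobiopterin synthesis, had 90.3, 78.8 and 99.1 normalized reads in retinas labelled Samd7 KO against 79.6, 66.0 and 78.1 in wild type, with overlapping groups (log2 difference 0.26, SE 0.19). Gchfr encodes the protein through which tetrahydrobiopterin inhibits and phenylalanine stimulates that enzyme. Gchfr had 81.3, 152 and 114 in retinas labelled Samd7 KO against 460, 604 and 556 in wild type. Its groups were well apart, with means of 116 ± 35.6 under the KO label and 540.2 ± 73.1 in wild type (SD, n = 3 each), 4.67-fold lower under the KO label (log2 difference -2.25, SE 0.21).

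The promoters of Th and Gchfr are shown beside that of Hdc because these 3 genes were the ones lower by the larger margins (RefSeq, GRCm38.p6; capitals mark a full cyclic AMP response element, TGACGTCA). The window of Th is chr7:142899946-142900245 on the minus strand (GC content 64.3%), and that of Gchfr is chr2:119167538-119167837 on the plus strand (GC content 67.0%):
Th: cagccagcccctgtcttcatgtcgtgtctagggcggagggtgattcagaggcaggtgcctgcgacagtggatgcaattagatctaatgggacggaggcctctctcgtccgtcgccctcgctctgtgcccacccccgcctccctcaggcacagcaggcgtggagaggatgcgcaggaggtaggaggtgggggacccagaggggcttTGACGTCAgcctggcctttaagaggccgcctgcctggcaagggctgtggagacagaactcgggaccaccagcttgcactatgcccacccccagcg
Gchfr: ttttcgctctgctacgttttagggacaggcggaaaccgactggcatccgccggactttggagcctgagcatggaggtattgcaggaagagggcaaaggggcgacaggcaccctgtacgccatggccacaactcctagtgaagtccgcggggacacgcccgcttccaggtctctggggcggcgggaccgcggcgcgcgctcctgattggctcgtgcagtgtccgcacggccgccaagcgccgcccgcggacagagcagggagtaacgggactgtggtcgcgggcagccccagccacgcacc

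In these windows 3 motifs were searched on both strands. The cyclic AMP response element begins at position -45 of Th, where the start site is position 0. It is in 588 of 32851 windows of all genes (1.79%) and in no other window of these genes. TAATCC, the core bound by the photoreceptor factor Crx, was in 1 of 13 windows of these genes, that of Hnmt, and in 7.06% of all windows. TGCTGA, a binding element of the rod factor Nrl, was in 5 of 13, those of Ddc, Gch1, Hnmt, Hrh1 and Maoa, and in 19.5% of all windows. RefSeq windows were found for 9 of the 10 genes, 13 in all. The gene without a window was Slc6a2, whose promoter was therefore not searched. The windows of Hdc and Gchfr hold none of the 3 motifs. A match is a run of letters, not a shown binding site.

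Slc6a2, the plasma membrane transporter that takes noradrenaline back into neurons, went the other way. It had 297, 348 and 276 normalized reads in retinas labelled Samd7 KO, from 263, 336 and 287 counted reads, against 6.84, 24.9 and 41.4 in wild type, from 8, 23 and 44 counted reads. The groups did not come near each other, while the wild-type retinas varied among themselves with a coefficient of variation of 70.9%. The means of 307 ± 37.2 under the KO label and 24.4 ± 17.3 in wild type (SD, n = 3 each) differed 12.6-fold (log2 difference 3.90, SE 0.46; 3.66 in the authors' deposited table). Without wild type 3 the difference was 19.4-fold, and without wild type 1 it was 9.26-fold. Slc6a2 lies on chromosome 8, from 92960470 to 93001667 (GRCm38). Maoa, the mitochondrial oxidase that breaks down noradrenaline and serotonin, was level, at 559, 610 and 555 in retinas labelled Samd7 KO against 543, 545 and 644 in wild type (log2 difference -0.0043, SE 0.11).

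Counted together, the groups did not overlap for 6 of the 10 genes, where 31.1% of all tested genes had separate groups. By limma across 20277 genes, 1 of the 10 passed as higher (Slc6a2) and 3 as lower (Hdc, Gchfr and Th), where 12% of all tested genes passed. All 10 passed the filter on low values. Slc6a2 did so through its libraries labelled Samd7 KO, since wild type 1 lay under the minimum, while the other 9 reached it in every library. The median log2 difference of the 10 was -0.15, against 0.0018 over all tested genes. Since this contrast chose the genes, nothing is read from these counts or this median. In GRCm38 coordinates, Hnmt lies on chromosome 2 from 24002911 to 24049758, Hrh3 on chromosome 2 from 180099465 to 180104484 and Gchfr on chromosome 2 from 119167788 to 119172389. Hrh1 lies on chromosome 6 from 114397936 to 114483298, Th on chromosome 7 from 142892779 to 142899995 and Ddc on chromosome 11 from 11814101 to 11898144. Gch1 lies on chromosome 14 from 47153895 to 47189413 and Maoa on chromosome X from 16619698 to 16687812.

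Per kilobase of the longest transcript, Hrh3 led both groups, with 902 ± 59.3 normalized reads per kb under the KO label and 1062 ± 32.3 in wild-type retinas (SD, n = 3 each). In the retinas labelled Samd7 KO it was followed by Hnmt (314 per kb), then Th, Gchfr and Maoa (212, 179 and 138), of which Gchfr overlapped both others. Slc6a2 (49.6) and Gch1 (25.5) came next, then Ddc and Hrh1 (13.5 and 10.8), which overlapped, and Hdc came last at 3.06. In wild type, Gchfr was second (837 per kb), followed by Hnmt, Th and Hdc (345, 314 and 284), where each overlapped the next. Maoa (139) and Gch1 (21.3) came after them, then Hrh1 and Ddc (12.1 and 8.57), which overlapped, and Slc6a2 was last at 3.94.

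Outside the 10, a few genes of the amine pathways passed the test, in both directions. A further 52 genes of the amine pathways were taken from lists that hold none of the 10, also chosen with earlier results of these data known. Of these 52 genes, 37 were tested. In the retinas labelled Samd7 KO, 2 rose and 5 fell (18.9%, where 12% of all tested genes passed). With 1 library left out the count was 3 (without KO 3 or without wild type 3) to 8, with 4 without wild type 1, and with a replicate block it was 4. Their median log2 fold change was -0.026, against 0.0018 over all tested genes. The 7 that passed were Adrb1 and Slc29a4, which rose, and Drd4, Drd2, Adra2c, Adra1a and Sult1a1, which fell.

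Adrb1, the beta-1 adrenergic receptor, rose 2.13-fold. It had 8010, 6946 and 7968 normalized reads in retinas labelled Samd7 KO, against 3632, 3614 and 3532 in wild type (log2 fold change 1.09, SE 0.08, limma adjusted p = 1.84e-06). Adrb1 had the highest mean of the 9 adrenergic receptors. The alpha receptors Adra1a (26.0 ± 1.88 under the KO label against 58.0 ± 13.7 in wild type, limma adjusted p = 0.0171) and Adra2c (933 ± 3.12 under the KO label against 1248 ± 132 in wild type, limma adjusted p = 0.0192; SD, n = 3 each) fell. The other 6, among them Adra2a with a log2 fold change of -0.0012, did not pass. Neither Adra1a nor Adra2c passed on leaving out KO 3, wild type 1 or wild type 3, nor Adra2c with a replicate block.

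Among dopamine receptors, Drd4, the receptor through which dopamine acts on photoreceptors, had the highest mean per library and per kb of its list and fell 1.32-fold. Its values were 29251, 25613 and 26515 normalized reads in retinas labelled Samd7 KO, against 35007, 37011 and 35269 in wild type (log2 fold change -0.40, SE 0.07, limma adjusted p = 0.00167). Drd2, the receptor that also serves as autoreceptor of dopamine neurons, fell 1.23-fold (1508 ± 41.9 under the KO label against 1854 ± 44.3 in wild type, SD, n = 3 each, limma adjusted p = 0.0327). Drd1 and Drd5 did not pass. Drd3 and Taar1 were too low to test. The Drd2 call ended with scaling to total reads, with a replicate block and without any of KO 3, wild type 1, wild type 2 or wild type 3.

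**Figure D2:**
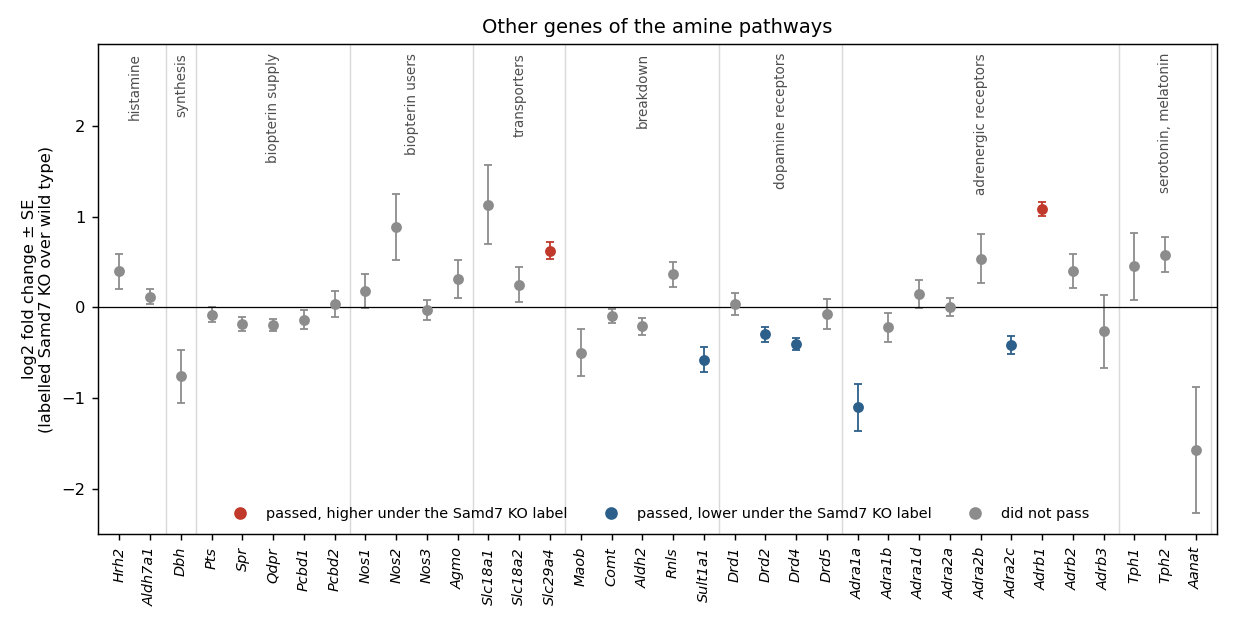
Log2 fold change with its standard error (labelled Samd7 KO over wild type) of 36 of the 37 other tested amine pathway genes, grouped by role; red and blue points passed the test. Adrb1 and Slc29a4 stand above the line and Drd2, Drd4, Adra1a, Adra2c and Sult1a1 below it.

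Of the other transporters, Slc29a4, a low-affinity carrier of monoamines and other organic cations, rose 1.54-fold. It had 2974, 3422 and 3336 normalized reads in retinas labelled Samd7 KO, against 1962, 2042 and 2313 in wild type (limma adjusted p = 7.69e-04). Slc18a2, the vesicular monoamine transporter of dopamine cells, did not pass (398 ± 127 under the KO label against 327 ± 40.6 in wild type, SD, n = 3 each, limma adjusted p = 0.454). Slc6a3, the dopamine transporter, was too low to test, at 6.22 to 9.62 under the KO label against 4.33 to 20.7 in wild type. Sult1a1, a sulfotransferase of phenols and catechols, fell 1.48-fold (249 ± 38.7 under the KO label against 368 ± 10.7 in wild type, SD, n = 3 each, limma adjusted p = 0.0189). It no longer passed with a replicate block, nor on leaving out KO 3, wild type 2 or wild type 3. The other 4 breakdown genes did not pass by limma, edgeR or DESeq2, but Aldh2 and Rnls had an unadjusted p under 0.05 by each. Slc18a1, of the transporter list, did not pass either, with an unadjusted p under 0.05 by limma and edgeR. It had 17.3 to 22.8 normalized reads under the KO label against 4.33 to 14.1 in wild type.

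Around Gch1 and Gchfr, the cofactor supply genes Pts, Spr, Qdpr, Pcbd1 and Pcbd2 did not pass by limma, edgeR or DESeq2, and Qdpr and Spr had an unadjusted p under 0.05 by each. Qdpr, which regenerates the biopterin cofactor, had 5274 ± 142 normalized reads under the KO label and 6029 ± 33.4 in wild-type retinas (SD, n = 3 each, limma adjusted p = 0.0840). Pts, Spr, Pcbd1 and Pcbd2 had log2 fold changes between -0.18 and 0.03. Of the other biopterin users, 0 of 4 passed by limma, edgeR or DESeq2, and 0 of 3 tested serotonin and melatonin genes did. At an unadjusted p under 0.05 limma counted 1 of the 4 (Nos2) and 2 of the 3 (Tph2 and Aanat). Tph2 passed on leaving out KO 1 (limma adjusted p = 0.0468) and with scaling to total reads (limma adjusted p = 0.0470). Dbh, which turns dopamine into noradrenaline, had 19.3 ± 4.12 under the KO label against 33.2 ± 5.36 in wild type (SD, n = 3 each, limma adjusted p = 0.123). Hrh2, the remaining histamine receptor that could be tested, had 113 ± 22.4 under the KO label against 84.3 ± 3.75 in wild type (SD, n = 3 each, limma adjusted p = 0.219). The pathway genes named here that did not pass were singled out with their values known.

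Markers of the cells that could carry these genes are set beside them. Mast cells are a rich source of Hdc elsewhere in the body. Of 10 mast cell markers, 6 were at 0 in all libraries, and Cpa3, Tpsb2 and Fcer1a together had 0 reads in the libraries labelled Samd7 KO and 4 in wild type. The other one, Kit, which further cells also express, had 115 to 201 normalized reads under the KO label against 87.7 to 135 in wild type. Of 3 basophil markers, Mcpt8 was at 0 in all libraries, and the summed level was 0.962 to 16.9 under the KO label against 0.941 to 6.84 in wild type.

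Markers of the pigment epithelium, the tissue behind the retina, were lower under the KO label. Of 10 such markers 8 fell and 0 rose by limma, while 8 passed by edgeR and 6 by DESeq2. The sum of the 10 was 1302 to 2387 normalized reads in retinas labelled Samd7 KO, against 4033 to 6506 in wild type (2.99-fold lower). Wild type 3 had the lowest sum of its group, 4033 against 6506 and 6488 in wild type 1 and 2. Its Hdc, at 1211, and its Gchfr, at 556, each lay between the values of the other wild-type retinas. Among the retinas labelled Samd7 KO, replicate 2 had the lowest pigment epithelium sum and the highest Gchfr. The part of these cells in the differences of Hdc and Gchfr was not tested.

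Photoreceptor markers also moved. All 5 rod markers fell by limma, with a sum 1.71-fold lower, while 5 passed by edgeR and 4 by DESeq2. Of 5 cone markers 1 rose (Opn1sw, the short-wavelength opsin) and 1 fell (Opn1mw, the middle-wavelength opsin). Amacrine markers, which belong to the class that includes dopamine cells, passed in 0 of 8 by limma, edgeR or DESeq2 (1, Slc32a1, at an unadjusted p under 0.05), with a sum of 40145 to 44280 normalized reads under the KO label against 39764 to 44383 in wild type. Of the markers of dopamine amacrine cells other than Th, which is one of the 10, Slc18a2 did not pass and Slc6a3 was too low to test. Of markers of noradrenergic neurons, Dbh stood at 15.8 to 23.8 normalized reads under the KO label against 27.1 to 36.7 in wild type, and Hand2 was at 0 in all libraries. Phox2a had 0, 0 and 4 counted reads under the KO label against 1, 0 and 0 in wild type. Dbh and Hand2 were thus not higher where Slc6a2 was. Microglia markers (5 of 6) and red blood cell markers (5 of 5) rose. Endothelial markers rose in 1 of 7. Müller glia markers rose in 2 of 6 and fell in 1, while markers of horizontal, bipolar and ganglion cells passed in 0 of 3, 0 of 4 and 0 of 4 by limma, edgeR or DESeq2 (1, 3 and 0 at an unadjusted p under 0.05). The part of these cells in the results was not tested.

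**Figure D3:**
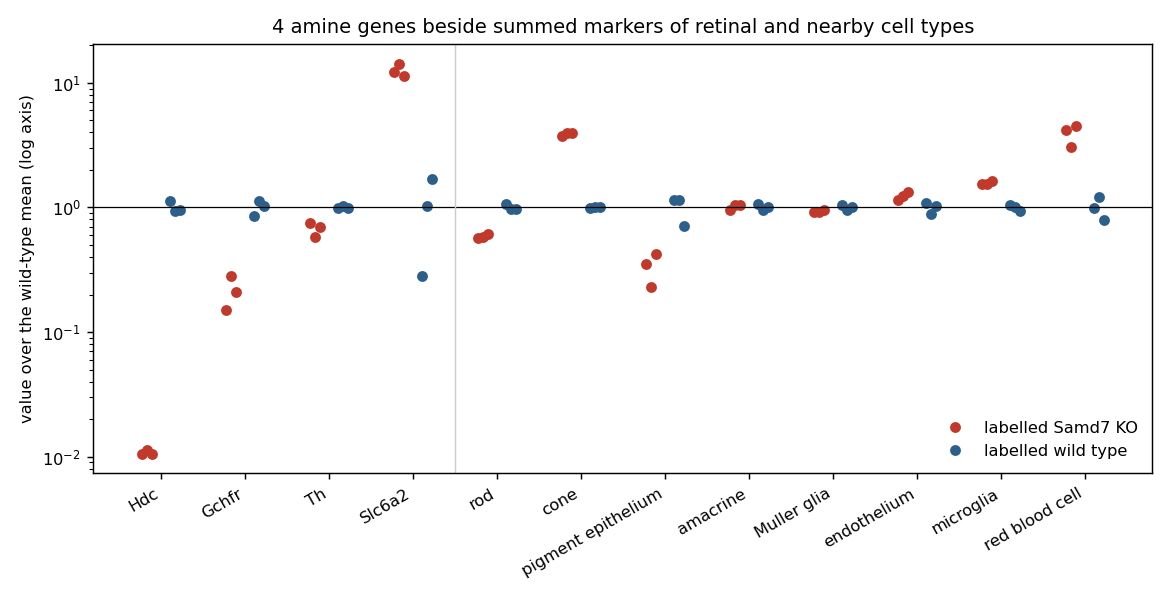
Values of Hdc, Gchfr, Th and Slc6a2, and summed markers of 8 cell types, in each retina labelled Samd7 KO (red, left) and wild type (blue, right), divided by the wild-type mean (log axis). Hdc lies 92.6-fold and the pigment epithelium sum 2.99-fold under its wild-type mean. The cone sum lies 3.86-fold above its wild-type mean through Opn1sw, which holds 416374 of its 479686 normalized reads under the KO label (means). No other cone marker passed as higher, and Opn1mw fell.

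Most chromosomal neighbours of these genes did not pass the test. For each gene the 3 nearest tested genes on either side within 250 kb were examined, 39 genes in all, with none for Hnmt. Of these, 0 rose and 3 fell by limma (7.69%, where 12% of all tested genes passed), and 1 fell on leaving out wild type 3. The 4 neighbours of Hdc had log2 fold changes between -0.06 and 0.21, and 0 passed by limma, edgeR or DESeq2 (1, Usp8, at an unadjusted p under 0.05). The 4 neighbours of Slc6a2 lay between -0.88 and 0.27, where 0 passed by limma or edgeR and 1 by DESeq2 (Ces1d), with 2 at an unadjusted p under 0.05 (Ces1d and Mmp2).

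Gchfr had 2 neighbours that fell, Rmdn3 and Knl1. Rmdn3, a mitochondrial tethering protein, had 5402, 5392 and 5141 normalized reads in retinas labelled Samd7 KO, against 8194, 8484 and 7883 in wild type (1.54-fold lower, limma adjusted p = 7.26e-05). Knl1, a kinetochore protein, had 11.3, 10.4 and 15.4 in retinas labelled Samd7 KO against 25.7, 40.0 and 58.4 in wild type (limma adjusted p = 0.0114), and no longer passed on leaving out wild type 3. Dnajc17, which lies 111 bases from Gchfr, did not pass (log2 fold change -0.07, SE 0.09). The third, Psma7, a proteasome subunit near Hrh3, had 8542 ± 290 under the KO label against 10049 ± 403 in wild type (SD, n = 3 each, limma adjusted p = 0.0392). It no longer passed on leaving out KO 2, KO 3, wild type 2 or wild type 3, nor with total-read scaling, no filter or a replicate block.

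**Figure D4:**
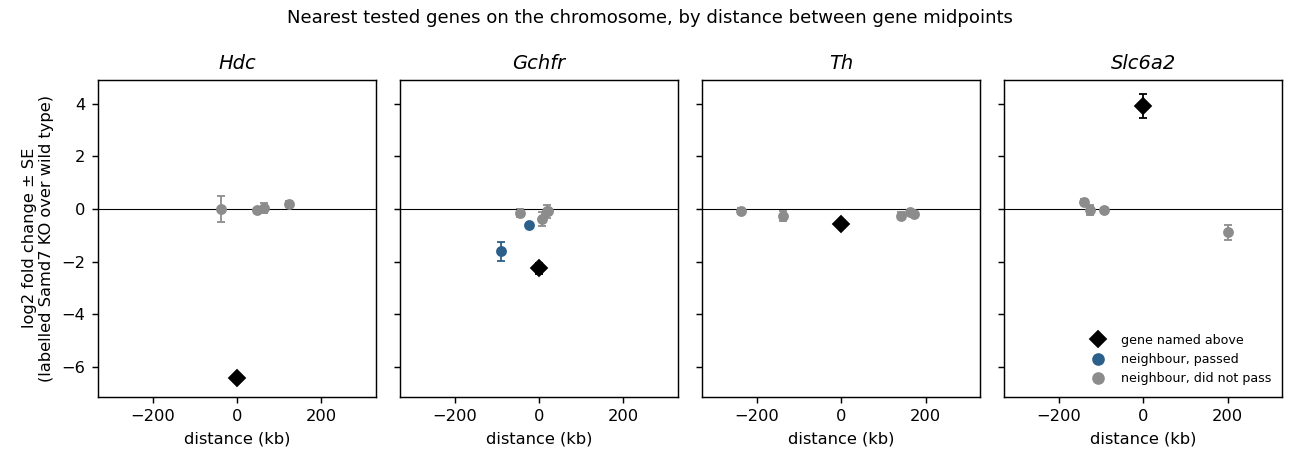
Log2 fold change with its standard error (labelled Samd7 KO over wild type) of Hdc, Gchfr, Th and Slc6a2 (black diamonds) and their nearest tested neighbours (circles, blue where the test was passed), by distance between gene midpoints in kb. The neighbours of Hdc lie between -0.06 and 0.21, and Rmdn3 and Knl1 lie under the line beside Gchfr.

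The genes whose levels followed Hdc most closely over the 6 libraries were Faim, Adipor1, Gnb1, Slc25a5 and Trafd1, with Pearson's r from 0.998 to 0.999 on the log2(value + 1) scale. Those closest to Slc6a2 were Spcs2, Tal2, Rsph3a, Ptgfr and Zc2hc1a, with r from 0.994 to 0.999. The libraries fall into their label groups for Hdc and Slc6a2, so r, given here as a description, carries that difference whatever its size. Slc25a5 was 1.20-fold lower (26572 ± 209 under the KO label against 31890.3 ± 285 in wild type), while Tal2, a transcription factor, was 33.3-fold higher (359.8 ± 43.7 under the KO label against 10.8 ± 8.61 in wild type; SD, n = 3 each). In wild type 1, 2 and 3 Tal2 had 1.71, 11.9 and 18.8, rising in the same order as Slc6a2. Spcs2, Rsph3a, Ptgfr and Zc2hc1a had that order too. All were picked by r over these same libraries, so nothing is read from the shared order. In KO 1, 2 and 3 Tal2, at 406, 354 and 319, did not keep the order of Slc6a2, at 297, 348 and 276. Rsph3a and Ptgfr did not keep it either, while Spcs2 and Zc2hc1a did.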

How the data were processed

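RNA of 6 mouse retinas was measured, 3 per label group. The authors' deposited table gives, per gene and library, a signal: reads of the gene scaled by a size factor that each library has, as the header and the values show. It also gives the authors' log2 fold change, and their standard error and Wald score, with p-values deposited from DESeq2. Alignment and counting tools named per the submitters' processing notes include STAR 2.7.3a and HTSeq 0.12.4, beside SAMtools 1.9, cutadapt 3.0 and DRAGEN, on GRCm38 (mm10). What each did, and whether counting used strand, is not given here. Dividing by the worth of 1 read gave whole reads for all 166478 values above 0 (100%, within 0.01 reads). No molecular identifiers are described.

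The test was limma-trend 3.58.1 (R 4.3.3) on log2(value + 1), with genes of at least 10 normalized reads in 3 libraries (20277 of 49997), two-sided, Benjamini-Hochberg adjusted over all of them, called under 0.05. The added 1 shrinks log2 differences of low genes. Log2 differences compare means of log values, while folds are ratios of group means, so either can be the larger. For Slc6a2 the log2 difference of 3.90 was above the 3.66 of the authors' deposited table. On recovered reads, edgeR 4.0.16 with TMM factors called 2494 genes and DESeq2 1.42.0 called 2883, against 2432. Since separate mice are not stated, p-values cover the spread of these retinas only, which may be technical. Replicate pairs had a chi-square over degrees of freedom of 6.78 to 33.0, so none agreed within counting noise. The fit was tested on simulated data. Members, lists and motifs were chosen with earlier results of these data known. Named were all 10 members, every called gene of the lists (at most 4 per list), the receptor or transporter with the highest mean in its list, called neighbours and the 5 most similar genes to Hdc and Slc6a2. Positions come from RefSeq GRCm38.p6, lengths from GENCODE M21. A few listed genes are not reported here.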

Additional observations from a re-analysis of the deposited data

How the results depend on the processing

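The alternatives were edgeR and DESeq2 on recovered reads, scaling to total reads, pseudocounts of 0.5 and 5, no filter, a filter at 50, a replicate block, and fits with 1 library left out. The log2 difference ranged from -6.53 to -6.09 for Hdc, 3.21 to 4.43 for Slc6a2, -2.47 to -2.02 for Gchfr and -0.65 to -0.47 for Th. Across the transcriptome 2432 genes passed, and 1313 (without wild type 3) to 3247 (without KO 1) when a library was left out, with 1497 without KO 3 and 1470 without wild type 2; the share of rises was 56.6%, and 71.2% with scaling to total reads. Of the 37 other pathway genes tested, 7 passed, 3 to 8 with a library left out, and 4 with the replicate block. Of the 39 neighbours tested, 3 passed, and 1 to 4 with a library left out. Retinas of the same replicate number did not vary together (r of deviations from group means -0.18, -0.13 and -0.01). Retinas of unlike number had r from -0.05 to 0.19, the highest for KO 1 with wild type 2. Deviations sum to 0 within each group, so these r values are bound to one another. With the replicate block 1624 genes passed. Adrb1, Drd4 and Slc29a4 passed under all 14 alternatives. The cause of these shifts was not tested. Depth limits Hdc under the KO label, Ddc, Hrh1 and wild-type Slc6a2, each at 67 or fewer reads per library.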
